A study of Danio rerio with 28 samples.

Results

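The goblet cell and mucus genes described here are agr2, clca1, muc13b, muc2.1, spdef and atoh1b, 6 genes listed by name. The list was drawn up with earlier results of these libraries known, so a count of members that moved is a description and not independent evidence. Of these 6, the 4 genes agr2, clca1, muc13b and atoh1b were matched to 1 row each in both count tables, which held 16134 rows in experiment 1 and 15419 rows in experiment 2. No row was matched to muc2.1, a gel-forming mucin, or to spdef, a transcription factor of goblet cell maturation in mouse, and these genes were not analysed here. RNA was sequenced from 28 libraries of zebrafish larval gut, with 10 to 15 guts pooled per library at 7 days post-fertilization. Experiment 1 held wild type and il22 knockout (il22-/-) larvae whose housing the labels do not state. Experiment 2 held wild type larvae reared conventionally or germ-free, and il22-/- larvae reared conventionally, germ-free or in co-housing, whose partner the labels do not name. The labels used here name neither the il22 allele nor the wild type strain. Each of the 7 groups had 4 libraries, so p-values measure the spread between pools and not between single larvae.

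Goblet cells are secretory cells of the gut epithelium that fold, glycosylate, pack and release mucins, which form the mucus layer between the epithelium and the gut contents. They arise from the same progenitors as enteroendocrine cells, and Notch signalling restrains the bHLH factors that commit a progenitor to secretion. Interleukin-22, the product of il22, signals to epithelia by way of STAT3 and in mouse is known for its part in epithelial defence and mucus production. The title of the study joins il22 with gut motility and the microbiota, and the groups compare genotype and rearing.

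Library totals, in units of 1e+06 counts, ran from 30.24 to 37.95 in experiment 1 and from 22.26 to 31.0 in experiment 2. In experiment 1, il22 stood at 3.99 to 13.8 CPM (counts per 1e+06, with library sizes scaled by TMM) in wild type and at 0.154 to 1.91 CPM in the knockout, with no overlap. In experiment 2 it was close to 0 in both genotypes, so it does not check the labels there. Markers of the intestinal epithelium summed to between 6052 and 12365 CPM in the 28 libraries, and none of those with a row was at 0 in every library. The most abundant were fabp6, slc15a1b and vil1. Group means were at most 0.0169 CPM for epcam, which had a row in experiment 2 only, 0.454 CPM for fabp2 and 1.08 CPM for hnf4a. Whether these low values reflect little RNA or reads that were not counted was not tested. Skeletal muscle markers reached 1034, 643 and 369 CPM in conventional wild type library 1, germ-free wild type library 2 and co-housed knockout library 2, against at most 77.6 CPM elsewhere. Skin and pharyngeal markers reached 988 CPM in conventional wild type library 1 and 803 CPM in germ-free knockout library 3, against at most 616 CPM elsewhere. The part of the skin and pharyngeal markers in the results of experiment 2 was not tested. In bulk guts, fewer goblet cells and less RNA per cell cannot be told apart, nor can RNA of goblet cells and of other cells.

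In experiment 1 all 4 measured genes fell in the knockout, and for each of them the highest knockout library was under the lowest wild type library. The fall was 16-fold for clca1, 2.31-fold for muc13b, 1.82-fold for agr2 and 1.68-fold for atoh1b. Among the 10710 genes tested in that comparison 33.1% passed the threshold, an adjusted p of 0.05 in edgeR's quasi-likelihood test. Those that fell made up 17%, and 34.3% of the genes tested had groups that did not overlap. The median log2 fold change was −1.03 over the 4 genes and −0.01 over all genes tested.

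In experiment 2 no measured gene passed in the knockout against wild type under conventional rearing, where 36.2% of 11254 genes passed, or under germ-free rearing, where 26.8% passed. At an unadjusted p under 0.05, edgeR took 1 of the 4 (atoh1b) under conventional rearing and 0 under germ-free rearing. DESeq2 called 1 (atoh1b, adjusted p = 0.0476) and 0, and limma on TPM (transcripts per 1e+06, a unit scaled for gene length) called 0 in both. Germ-free guts had less agr2 than conventional guts in both genotypes, the 1 gene of the 4 that passed in each, against 25.2% of all genes in wild type and 27.2% in the knockout. Genes that fell made up 13.2% and 13.3%. Those 2 germ-free comparisons share no libraries, but both came from the fit of all 20 libraries of experiment 2 and so share its estimate of the spread.

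**Figure D1:**
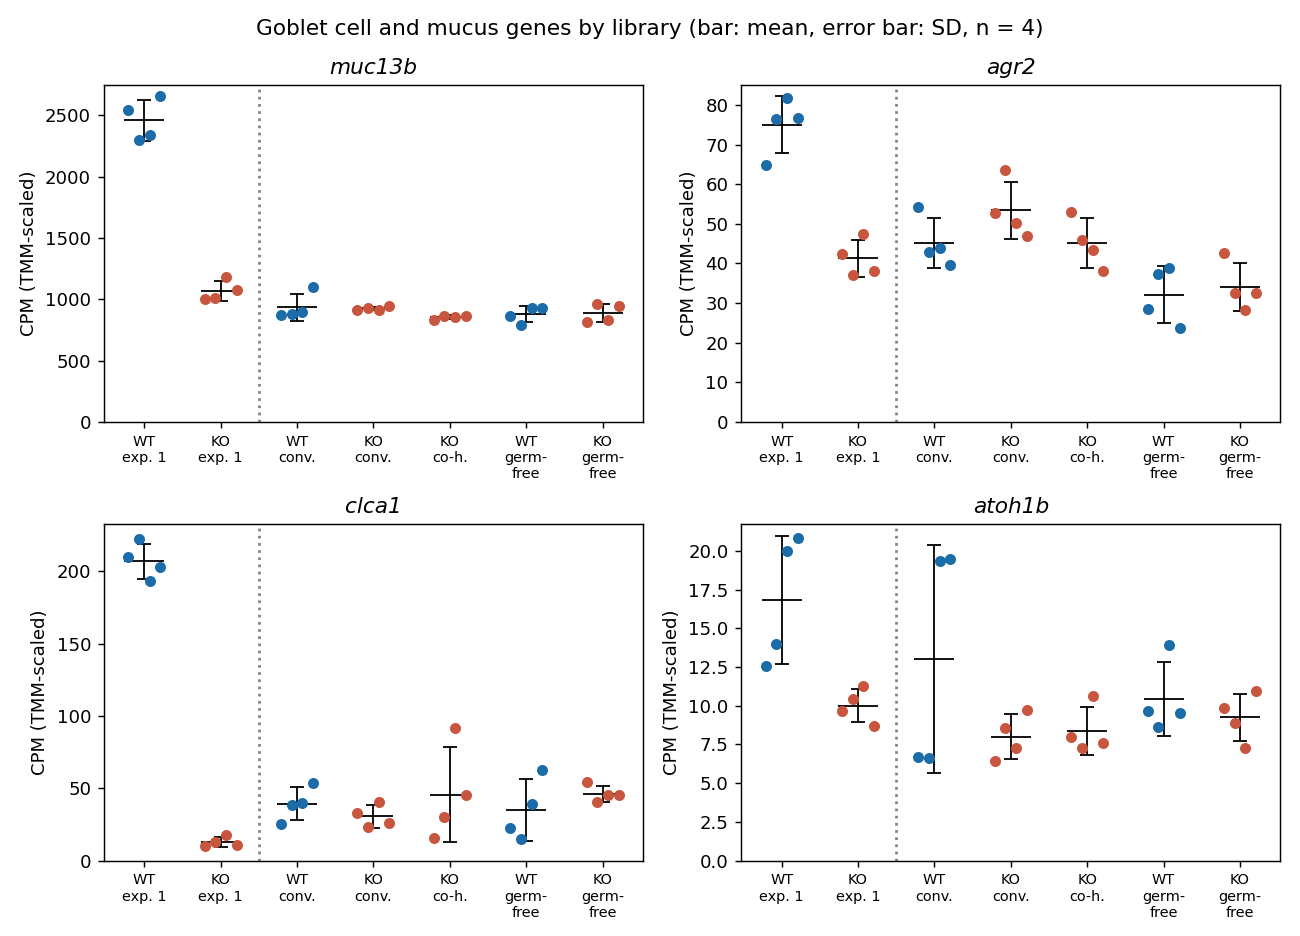
CPM of muc13b, agr2, clca1 and atoh1b in each library, by group, on linear axes that start at 0 (blue, wild type; red, knockout). Points are single libraries, horizontal bars the mean and error bars the SD of 4 libraries, and the dotted line parts the experiments. In experiment 1 the wild type points lie above the knockout points for all 4 genes, and conventional wild type splits into a low and a high pair for atoh1b.

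The transmembrane mucin gene muc13b, whose mammalian counterpart lines the apical surface of epithelial cells, was the most abundant of the 4 per unit of length. It averaged 1479 TPM in wild type of experiment 1 and 502 to 625 TPM in the other 6 groups, and ranked 119 to 239 by TPM among the genes of a library. In wild type of experiment 1 its 4 libraries held 2543, 2297, 2340 and 2654 CPM. The knockout libraries held 1001, 1008, 1182 and 1074 CPM. The means were 2459 ± 169 and 1066 ± 84.1 CPM (SD, n = 4), and the log2 fold change was −1.21 ± 0.08 (SE; adjusted p = 9.68e-06). The lowest wild type library, at 2297 CPM, stood well above the highest knockout library, at 1182 CPM.

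In experiment 2 muc13b was the steadiest of the 4, with a coefficient of variation of 7.45% over 20 libraries and a highest library 1.39 times the lowest. Conventional wild type held 869, 878, 899 and 1099 CPM, and the conventional knockout 913, 929, 916 and 941 CPM. The log2 fold change between them was −0.02 ± 0.07 (adjusted p = 0.874), with an interval of 2 SE either side from −0.17 to 0.13. Germ-free wild type held 867, 792, 926 and 932 CPM and the germ-free knockout 817, 965, 832 and 942 CPM. All 4 of these groups overlapped. The co-housed knockout held 829, 866, 858 and 867 CPM, below every conventional library of either genotype, yet the log2 fold changes of −0.11 ± 0.07 against the conventional knockout (adjusted p = 0.46) and −0.13 ± 0.07 against conventional wild type (adjusted p = 0.189) did not pass. Such non-overlap was found for 12.6% and 26% of all genes in those comparisons.

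The gene agr2 encodes a protein disulfide isomerase of the endoplasmic reticulum that mouse goblet cells need to fold gel-forming mucin. Wild type of experiment 1 held 64.8, 76.4, 81.8 and 76.7 CPM of agr2. The knockout held 42.3, 37.2, 47.5 and 38.2 CPM. The means were 74.9 ± 7.18 and 41.3 ± 4.69 CPM, a log2 fold change of −0.86 ± 0.10 (adjusted p = 0.000229). Every knockout library was lower than every wild type library.

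Under conventional rearing agr2 showed no such fall. Conventional wild type held 54.4, 42.9, 43.8 and 39.5 CPM, and the conventional knockout 52.8, 63.6, 50.3 and 46.9 CPM. These groups overlapped, and the log2 fold change was 0.24 ± 0.16 (adjusted p = 0.237). Germ-free wild type held 28.5, 37.4, 38.8 and 23.8 CPM, each below the lowest conventional wild type library, with a log2 fold change of −0.49 ± 0.16 (adjusted p = 0.0285). That call was lost when conventional wild type library 1, 2 or 3 or germ-free wild type library 1 or 4 was left out, with an adjusted p between 0.0534 and 0.107. It was also lost without the 3 libraries high in muscle markers (adjusted p = 0.0771) and when only the groups compared were fitted (adjusted p = 0.0786).

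The germ-free knockout held 42.6, 32.5, 28.4 and 32.7 CPM of agr2, each below the lowest conventional knockout library. The log2 fold change was −0.65 ± 0.16 (adjusted p = 0.00532), and the fall did not differ detectably from that in wild type (interaction −0.16 ± 0.22, adjusted p = 0.775). Non-overlap was found for 17.1% of all genes in wild type and 33.5% in the knockout. The co-housed knockout held 53.1, 45.9, 43.4 and 38.1 CPM, which overlapped the conventional knockout (log2 fold change −0.24 ± 0.16, adjusted p = 0.448). By mean, agr2 in experiment 2 ran from the conventional knockout through conventional wild type, the co-housed knockout and the germ-free knockout to germ-free wild type. Each neighbouring pair in that order overlapped.

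The gene clca1, whose mammalian counterpart is a metalloprotease secreted with mucus by goblet cells, had the largest fold change of the 4. Wild type of experiment 1 held 209.6, 222, 193 and 203 CPM of clca1. The knockout held 10.2, 12.7, 18.0 and 10.8 CPM. The means were 207 ± 12.2 and 12.9 ± 3.53 CPM, with a log2 fold change of −4.00 ± 0.18 (adjusted p = 1.31e-06), the gene of rank 20 by p among those tested. Genes of the clca family are similar in sequence, so reads of close relatives could have been shared in the authors' counting, which makes the level of clca1 uncertain.

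In experiment 2 the libraries of a group varied widely for clca1. Conventional wild type held 25.6, 38.4, 39.6 and 53.4 CPM and the conventional knockout 33.0, 23.1, 40.7 and 25.8 CPM. Germ-free wild type held 22.3, 15.0, 39.5 and 62.9 CPM and the germ-free knockout 54.1, 40.6, 45.1 and 45.3 CPM. The co-housed knockout ran from 15.9 CPM in library 1 to 91.6 CPM in library 3, with 30.1 and 45.1 CPM in libraries 2 and 4. All 5 groups overlapped their neighbours in the order of means.

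The spread limited what could be seen for clca1. Its coefficient of variation was 61.1% in germ-free wild type and 71.9% in the co-housed knockout. The knockout effect was −0.36 ± 0.45 under conventional rearing (adjusted p = 0.57), with an interval from −1.27 to 0.55, and 0.40 ± 0.45 under germ-free rearing (adjusted p = 0.574). Germ-free against conventional guts gave −0.17 ± 0.45 in wild type (adjusted p = 0.821) and 0.59 ± 0.46 in the knockout (adjusted p = 0.362). The co-housed knockout differed from the conventional knockout by 0.57 ± 0.46 (adjusted p = 0.555), and by −0.01 without co-housed library 3. The interval of the conventional knockout effect does not reach the fall seen in experiment 1.

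The gene atoh1b encodes a bHLH transcription factor related to mammalian Atoh1, which directs gut progenitors to a secretory fate. It rested on the fewest counts of the 4, down to 167 in a library. Wild type of experiment 1 held 12.6, 14.0, 19.97 and 20.8 CPM. The knockout held 9.67, 10.4, 11.2 and 8.72 CPM. The means were 16.8 ± 4.15 and 10.0 ± 1.08 CPM, a log2 fold change of −0.75 ± 0.17 (adjusted p = 0.00896). The groups did not overlap, though the gap between them was small.

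Conventional wild type of experiment 2 split into 2 low and 2 high libraries for atoh1b, with 6.72, 6.63, 19.3 and 19.5 CPM. The conventional knockout held 6.44, 8.54, 7.28 and 9.72 CPM, close to the low pair. The log2 fold change was −0.70 ± 0.30 (adjusted p = 0.0772), close in size to that of experiment 1 but with a larger standard error. Over 17 alternative fits it ran from −0.92 to −0.41, with an adjusted p from 0.0177 to 0.325, and it passed in 4. Among these it passed without conventional wild type library 1 (−0.92, adjusted p = 0.0177) or library 2 (−0.90, adjusted p = 0.0193). The same 2 libraries were low in il22, with 4 and 1 counts (0.130 and 0.0342 CPM). Libraries 3 and 4 held 18 and 17 counts (0.680 and 0.595 CPM). These are few counts, and the 2 genes did not go together in every group. Co-housed knockout library 4 held the most il22 of experiment 2, at 25 counts, with atoh1b at 7.61 CPM. Muscle markers and skin and pharyngeal markers were high in conventional wild type library 1. The part of these differences in the result was not tested.

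Germ-free wild type held 9.66, 8.64, 13.9 and 9.50 CPM of atoh1b and the germ-free knockout 9.85, 8.92, 7.29 and 10.9 CPM, which overlapped (log2 fold change −0.17 ± 0.30, adjusted p = 0.732). The co-housed knockout held 7.95, 7.29, 10.6 and 7.61 CPM. Against conventional wild type its log2 fold change was −0.64 ± 0.30 (adjusted p = 0.116). Over 17 alternative fits it ran from −0.85 to −0.35, with an adjusted p from 0.0285 to 0.386. It passed in 2 of them, without conventional wild type library 1 (−0.85, adjusted p = 0.0285) or library 2 (−0.84, adjusted p = 0.032). None of the 4 genes passed in that comparison, in which 33.2% of all genes did. At an unadjusted p under 0.05 edgeR took 1 (atoh1b), and DESeq2 and limma on TPM called 0. Between the co-housed and the conventional knockout, where 2.59% of all genes passed, 0 of the 4 passed, with 0 at an unadjusted p under 0.05 and 0 by DESeq2 and limma.

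**Figure D2:**
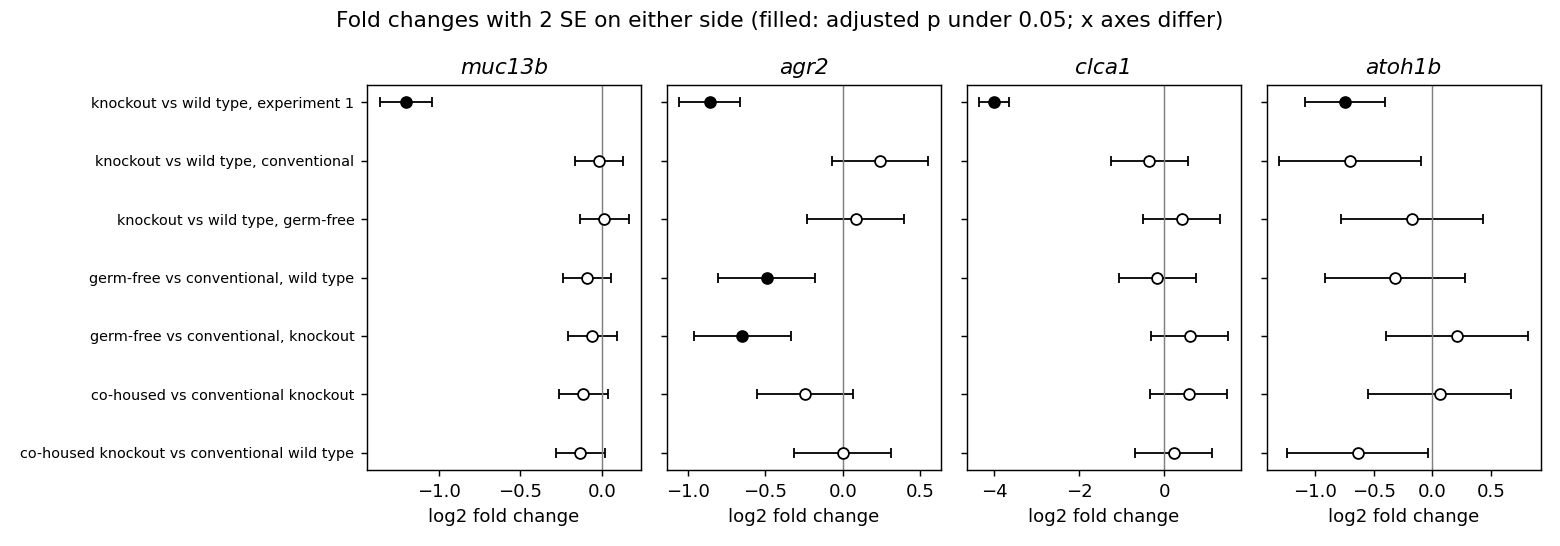
Log2 fold changes of muc13b, agr2, clca1 and atoh1b in each comparison between 2 groups, as points with bars of 2 SE either side. Points are filled where the adjusted p was under 0.05 (the x axes differ). The 4 genes lie below 0 in experiment 1, where clca1 is at −4.00. For germ-free against conventional guts agr2 lies below 0, at −0.49 in wild type and −0.65 in the knockout.

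The effect of the knockout was compared between experiment 1 and the conventional groups of experiment 2 in a fit of both tables, on names found in both. Here 3 of the 4 genes passed with a larger fall in experiment 1, against 9.92% of 11047 genes in either direction and 5.07% in that direction. The difference of log2 fold changes was −3.66 ± 0.32 for clca1 (adjusted p = 7.15e-06), −1.20 ± 0.12 for muc13b (adjusted p = 1.05e-05) and −1.11 ± 0.17 for agr2 (adjusted p = 0.000661). For atoh1b it was −0.06 ± 0.46 (adjusted p = 0.968), so a difference could not be detected at this spread. The libraries of the 2 experiments carry different name prefixes and were counted in separate tables, and housing in experiment 1 is not stated. These conditions cannot be told apart from the difference. Wild type also differed in il22, which averaged 7.50 CPM in experiment 1 and 0.360 CPM under conventional rearing in experiment 2. In the same 2 groups stat3 averaged 213 and 52.2 CPM. The part of these levels in the difference was not tested.

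The interaction of genotype and rearing within experiment 2 passed for 0 of the 4 genes, with 0.444% of all genes passing. At an unadjusted p under 0.05 edgeR took 0, and DESeq2 and limma on TPM called 0. The values were −0.16 ± 0.22 for agr2, 0.76 ± 0.64 for clca1, 0.03 ± 0.11 for muc13b and 0.53 ± 0.43 for atoh1b.

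Set side by side across the tables, which were counted separately, mean TPM levels describe wild type of experiment 1 as the high group. For clca1 it averaged 90.7 TPM, against 5.51 TPM in the knockout of the same experiment and 14.0 to 20.6 TPM in the groups of experiment 2. For agr2 it averaged 88.8 TPM, against 36.3 to 65.6 TPM in the other 6 groups. For atoh1b it averaged 27.8 TPM, against 13.7 to 22.01 TPM. These are levels, with no test.

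Other genes of goblet cells and mucus were taken from a list of 24, of which 12 had rows in each table and 10 were tested. Those without a row were muc2.2, muc5.1, muc5.2, muc5.3, muc13a, muc15, fcgbp, zg16, ern2, best2, gcnt3 and sytl2b. No mucin gene of this list was tested, so its counts say nothing about the other mucins. In experiment 1 the knockout had 2 of the 10 lower and 0 higher, with a median log2 fold change of −0.03 against −0.01 over all genes, of which 33.1% were called and 17% fell. These were foxa3, a forkhead factor of gut epithelium, which fell from 83.2 ± 8.96 to 58.0 ± 3.21 CPM (−0.52 ± 0.08, adjusted p = 0.00156), and agr1, a relative of agr2, which fell from 5.24 to 2.17 CPM (−1.27 ± 0.24, adjusted p = 0.00341). Skin and pharyngeal markers, a list that also holds agr1, summed to 377 to 420 CPM in wild type and 498 to 588 CPM in the knockout. Of 9 tested, ppl and cldne rose and evpla and agr1 fell, and ppl, which went from 264 to 381 CPM, carried most of the rise of the sum. In wild type and knockout, icn averaged 102 and 124 CPM, cyt1 5.90 and 18.1 CPM and krt17 7.56 and 11.0 CPM. icn2 averaged 0.275 and 0.778 CPM, and cyt1l went the other way, at 1.96 and 1.15 CPM. None of these was called. cldni was at 0 in all 8 libraries, and krt5 and tp63 averaged 0.0327 and 0.141 CPM in wild type and 0.0393 and 0.0394 CPM in the knockout. The part of these markers in the result was not tested. Under conventional and under germ-free rearing, edgeR called 0 of the 10 in the knockout, beside 36.2% and 26.8% of all genes called. At an unadjusted p under 0.05 it took 4 and 2. DESeq2 called 3 and 0, and limma on TPM 0 and 0.

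Between germ-free and conventional guts, 3 of the 10 rose and 1 fell in wild type, with a median of 0.31 against 0.00 over all genes, of which 25.2% were called. In the knockout 3 rose and 2 fell, with a median of 0.21 against 0.01 over all genes, of which 27.2% were called. foxa3 rose by 0.38 ± 0.06 in wild type (adjusted p = 0.00063) and 0.31 ± 0.06 in the knockout (adjusted p = 0.00177). foxa1, a related forkhead factor, rose by 0.44 ± 0.12 and 0.78 ± 0.12 (adjusted p = 0.0109 and 0.000133). gfi1aa, related to mouse Gfi1, a repressor that acts in the choice between secretory cell types, rose by 0.91 ± 0.20 and 0.74 ± 0.20 (adjusted p = 0.00337 and 0.0103). b3gnt7, a glycosyltransferase also in the list of glycosylation enzymes, fell from 27.5 to 15.8 CPM in wild type (−0.80 ± 0.21, adjusted p = 0.00992) and from 34.1 to 16.5 CPM in the knockout (−1.04 ± 0.21, adjusted p = 0.0014). klf4, a factor of goblet cell differentiation in mouse, fell in the knockout, where conventional libraries ran from 8.77 to 30.4 CPM and germ-free libraries from 4.52 to 6.28 CPM (−1.54 ± 0.47, adjusted p = 0.0218). Between the co-housed and the conventional knockout 1 of the 10 was called, beside 2.59% of all genes. That was b3gnt7, lower in the co-housed knockout (−0.81 ± 0.21, adjusted p = 0.0432). This fall and that in the germ-free knockout were measured against the same 4 conventional knockout libraries, the group of highest mean for b3gnt7.

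**Figure D3:**
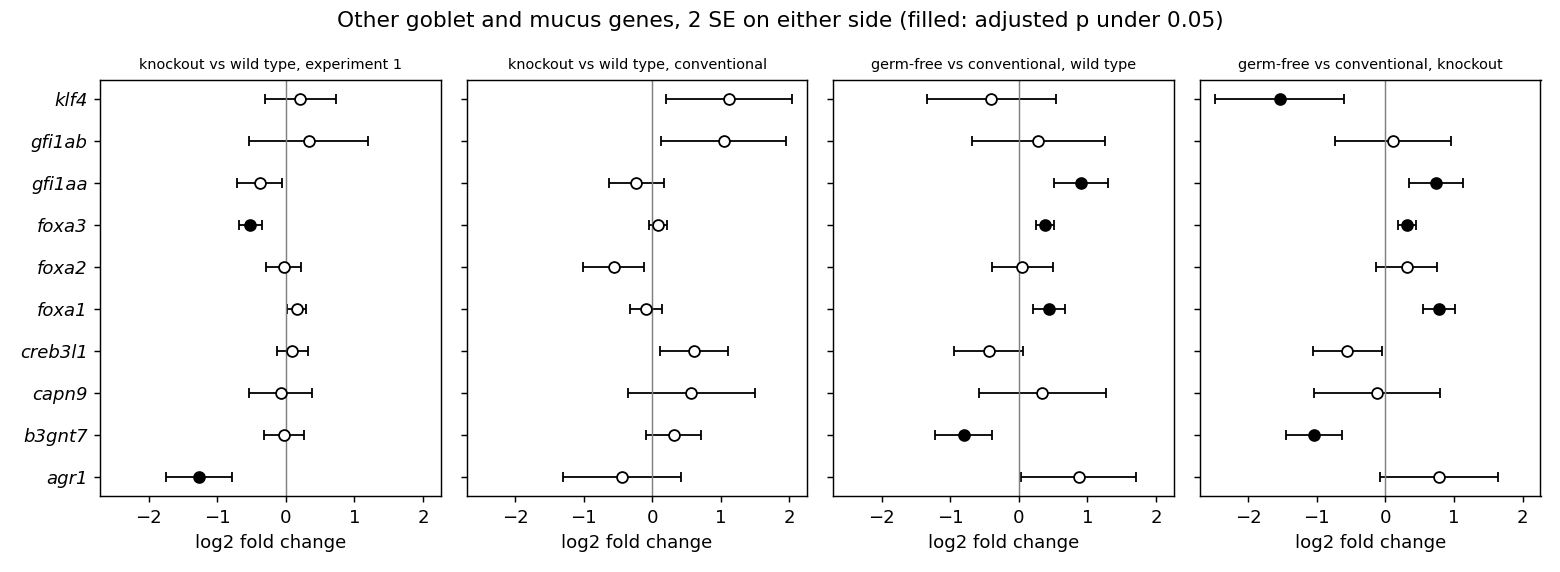
Log2 fold changes of the tested genes of the goblet and mucus list in 4 comparisons, with bars of 2 SE either side, filled where the adjusted p was under 0.05. In the germ-free comparisons foxa1, foxa3 and gfi1aa lie above 0 and b3gnt7 below 0 in both genotypes.

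Enzymes of mucin-type glycosylation, 12 tested of 31 listed, rose in 2 cases and fell in 0 in experiment 1, where 33.1% of all genes were called. These were b3gnt3.4, an N-acetylglucosaminyltransferase, by 0.36 ± 0.08 (adjusted p = 0.00693) and st6galnac1.1, a sialyltransferase, by 0.52 ± 0.16 (adjusted p = 0.0338). Under conventional rearing 2 rose and 2 fell, beside 36.2% of all genes called, among them b3gnt3.4 at 0.90 ± 0.13 (adjusted p = 1.82e-05) and c1galt1c1, a chaperone of the core 1 synthase, at 0.43 ± 0.05 (adjusted p = 6.34e-06). The knockout under germ-free rearing had 4 of the 12 higher and 2 lower, beside 26.8% of all genes called. In germ-free against conventional guts 1 rose and 4 fell in wild type and 0 rose and 3 fell in the knockout, beside 25.2% and 27.2% of all genes called. Among them b3gnt3.4 fell, by 0.92 ± 0.13 in wild type (adjusted p = 0.000149) and 0.96 ± 0.13 in the knockout (adjusted p = 5.66e-05).

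Endoplasmic reticulum folding genes, the machinery in which the product of agr2 works, were counted against the same all-gene shares. In experiment 1, 11 of 23 tested fell and 1 rose, with a median of −0.22, where 17% of all genes fell and 33.1% were called, among them pdia6, a disulfide isomerase, at −0.89 ± 0.07 (adjusted p = 2.73e-05). Under germ-free rearing 13 of 24 fell and 0 rose in the knockout against wild type. There 26.8% of all genes were called in either direction, and the share that fell is not given. Between germ-free and conventional guts 3 fell and 3 rose in wild type (median −0.02), where 25.2% of all genes were called and 13.2% fell. In the knockout 12 fell and 1 rose (median −0.20), where 27.2% of all genes were called and 13.3% fell. The folding genes that fell there included calr3b, a calreticulin, at −1.25 ± 0.12 (adjusted p = 4.13e-06). That comparison and the one between genotypes under germ-free rearing share the 4 germ-free knockout libraries. For the interaction of genotype and rearing, edgeR called 1 of 24 lower and 0 higher, beside 0.444% of all genes called. There DESeq2 called 7 and limma on TPM 0. Under conventional rearing 2 rose and 3 fell in the knockout, beside 36.2% of all genes called.

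Genes of Notch signalling and secretory fate, 25 to 27 tested of 33 listed, moved in both directions. In experiment 1, 5 of 25 rose and 1 fell, and under conventional rearing 3 of 27 rose and 4 fell. These shares lie below the 33.1% and 36.2% of all genes called in those comparisons. lfng, a fringe that modifies Notch, rose by 1.497 ± 0.11 (adjusted p = 1.77e-05), and ascl1a, a bHLH factor of secretory progenitors, fell by 0.77 ± 0.19 (adjusted p = 0.0134). Under conventional rearing ascl1a was at −0.81 ± 0.23 (adjusted p = 0.00885). Under germ-free rearing, where 2 of 27 rose and 2 fell beside 26.8% of all genes called, ascl1a fell by 0.87 ± 0.23 in the knockout (adjusted p = 0.00736) and lfng rose by 0.91 ± 0.12 (adjusted p = 1.24e-05). The related gene atoh1a was at 0 counts in all 28 libraries. The muscle markers ckma and mylpfa were also at 0 in all of them, although the summed muscle markers were high in 3 libraries. A row at 0 need not mean that the RNA was absent, and whether atoh1a was absent was not tested. Enteroendocrine markers, of the sister secretory cells, overlapped between genotypes in experiment 1, at 115 to 166 CPM in wild type and 97.5 to 134 CPM in the knockout, with 2 of 11 lower and 0 higher. Under conventional rearing their sums did not overlap, at 169 to 185 CPM in wild type and 120.01 to 149 CPM in the knockout, with 3 of 13 lower and 0 higher, beside 36.2% of all genes called. The all-gene share of non-overlap is not given for that comparison. In germ-free guts the sums overlapped, at 104 to 180 CPM in wild type and 87.8 to 200 CPM in the knockout. There 3 of 13 were lower and 1 higher, beside 26.8% of all genes called. The part of these markers in the results for atoh1b was not tested.

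The genes most like each member were those of highest Pearson correlation of log2 CPM over the 20 libraries of experiment 2, among 10446 genes. For agr2 these were selenof (0.89), ckba (0.87) and usp2a (0.86), and for muc13b gstt1b (0.84), xkr8.3 (0.83) and pygb (0.76). For clca1 they were tmem170a (0.73), gga1 (0.69) and cfbl (0.68), and for atoh1b slc6a22.1 (0.78), cat (0.70) and zfp36l2 (0.68). These libraries share their groups. Within groups of experiment 2 the same correlations ran from 0.62 to 0.86. They use the same 20 libraries on which the genes were chosen, so they are not a separate check. Over the 8 libraries of experiment 1, 8 of these 12 correlations were below 0. Those were taken across both genotypes, so they hold the difference between wild type and knockout. With muc13b they were −0.84, −0.71 and −0.78 in the same order, and with agr2 0.10, −0.56 and −0.41. With clca1 they were −0.59, −0.00 and 0.56, and with atoh1b 0.82, −0.53 and 0.18. Within groups of experiment 2, agr2 varied against clca1 (−0.49) and muc13b (−0.41), and muc13b with atoh1b (0.56). Within groups of experiment 1 the same pairs stood at 0.42, 0.20 and 0.25, so both negative values had the other sign there. Of the remaining pairs, clca1 with muc13b stood at 0.42 within groups of experiment 2 and 0.57 within those of experiment 1. In the same order, clca1 with atoh1b stood at 0.34 and 0.17, and agr2 with atoh1b at −0.07 and 0.65.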

How the data were processed

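For each experiment the authors deposited raw read counts per gene and TPM values. Per the labels' protocols RNA came from a Norgen kit and libraries from a TruSeq stranded mRNA kit. The submitters' processing notes name FastQC 0.11.8 and danRer11; aligner, counter, strand setting and annotation: not given in the sources used here. Rows of experiment 1 were named through RefSeq of GRCz12tu, which gave 15776 of 16134 rows a symbol. TPM was missing for 1886 rows. Counts were tested with edgeR 4.0.16 in R 4.3.3 (TMM, filterByExpr, robust quasi-likelihood F test, Benjamini-Hochberg over all genes, threshold 0.05). Experiment 1 was fitted alone, the 5 groups of experiment 2 together, and the difference between experiments on 16 libraries. SE is approximate, the size of the log2 fold change over the root of F. Alternatives used DESeq2 1.42.0, limma 3.58.1 on 3 TPM settings (log2(TPM + 1), log2(TPM + 0.1), and log2(TPM + 1) with no filter on low values), other size factors, no count filter, only the groups compared, each library left out, and no libraries high in muscle markers. Of these methods only the edgeR fit was tested on simulated counts, and not for every comparison. From other lists, up to 4 genes of smallest p per comparison could be named, and 3 genes most like each member. Members and lists were chosen with earlier results of these data known.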

Additional observations from a re-analysis of the deposited data

Results flagged for a closer look

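In conventional wild type guts, muc13b stood at 1099 CPM in library 4, away from the other 3 libraries at 869 to 899 CPM. It was the 1 library set apart from its group among 28 gene and group combinations, and chance sets apart about 1 in 20. Without it the knockout effect on muc13b under conventional rearing was 0.0974 on the log2 scale, not past the threshold.

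The knockout effect differed between experiment 1 and the conventional groups of experiment 2 for 3 genes by the test of the difference itself (edgeR, adjusted p between 7.15e-06 and 0.000661). The differences of log2 fold changes were −1.11 for agr2, −3.66 for clca1 and −1.20 for muc13b.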

How the results depend on the processing

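The count of goblet and mucus genes called stayed at 4 in experiment 1 and 3 for the difference between experiments under every alternative run, and at 0 for the knockout under germ-free rearing, co-housed against conventional knockout and the interaction. For the knockout under conventional rearing it was 1 with DESeq2 and without the 3 libraries high in muscle markers, and 0 to 1 leaving out each library. For germ-free against conventional wild type it was 0 when only the groups compared were fitted and without those 3 libraries, and 0 to 1 leaving out each library. For germ-free against conventional knockout it was 2 when only the groups compared were fitted (clca1, adjusted p = 0.0316). For the co-housed knockout against conventional wild type it was 0 to 1 leaving out each library. The cause was not tested.

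Changes of sign were limited to values that did not pass. For muc13b the conventional knockout effect was 0.0018 with only the groups compared and 0.0239 under the 3 TPM settings, and the germ-free knockout effect −0.0321 without the muscle libraries. For clca1, co-housed knockout against conventional wild type was −0.014, −0.031 and −0.014 under the TPM settings, and for agr2 it was 0.0909 without the muscle libraries. For atoh1b the difference between experiments was 0.1599 without the muscle library. Leaving out each library gave, for muc13b, −0.0517 to 0.0974 (conventional knockout), −0.0284 to 0.055 (germ-free knockout), −0.124 to 0.0258 (germ-free wild type) and −0.0815 to 0.0665 (interaction). It gave, for clca1, −0.3674 to 0.5025 (co-housed against wild type), −0.0131 to 0.8498 (co-housed against conventional knockout) and −0.6129 to 0.1064 (germ-free wild type). It gave, for agr2, −0.0899 to 0.1001 (co-housed against wild type) and −0.0428 to 0.1842 (germ-free knockout), and for atoh1b −0.0703 to 0.1697 (co-housed against conventional knockout) and −0.3281 to 0.1599 (difference between experiments).

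Over all genes, calls for germ-free wild type fell from 2838 to 1270 with only the groups compared, to 1814 without the muscle libraries and to 1695 without conventional wild type library 3; for the co-housed knockout against wild type they fell from 3733 to 2465 with only the groups compared. Calls for co-housed against conventional knockout ran from 78 to 621 around 292, for the interaction from 7 (without conventional knockout library 2) to 989 (without conventional wild type library 4) around 50, and for the difference between experiments up to 1900 (without conventional wild type library 4) around 1096. With the replicate block the counts of members called were the same, at 4 in experiment 1, where calls over all genes went from 3541 to 3349. Same-numbered libraries did not vary together in any comparison for all 4 pairs, so the numbers were not treated as a pairing. At most 2 of 4 libraries correlated best with their own number. Counts per library went down to 167 for atoh1b and 332 for clca1, which limits their precision.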
